A study of Mus musculus with 12 samples.

Results

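The genes described here are the ligands and receptor chains of the interleukin-6 (IL-6) cytokine family in SCC7 cells, a mouse squamous carcinoma line. They were taken by name: the ligand genes Il6, Il11, Lif, Clcf1 and Ctf1, and the receptor genes Il6st, Il6ra, Il11ra1, Lifr and Osmr. All 10 were found by Ensembl identifier among the 55487 genes of the count table, and 9 of them passed the filter on low counts, Lifr being the one that did not. SCC7 cells, labelled wild type, had been kept for 24 h in medium conditioned by bone-marrow-derived macrophages, and their RNA was sequenced in 12 libraries, 3 for each of 4 media. The macrophages had first spent 24 h in control medium (M0 CM), in interferon-gamma at 20 ng/ml (M1 CM), in interleukin-4 at 20 ng/ml (M2 CM), or in a mixture with 75% medium conditioned by SCC7 cells (TAM CM, for tumour-associated macrophage). The design thus asks how a carcinoma cell responds to medium conditioned by macrophages in 4 states. A cytokine left over from the macrophage step cannot be told apart from what the macrophages made. For TAM CM the same holds for SCC7-conditioned medium left over from that step, which the other 3 media did not receive.

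IL-6 family cytokines act through gp130, the shared signalling chain encoded by Il6st. IL-6 and IL-11 first bind their own alpha chains (Il6ra, Il11ra1), which hold no signalling part of their own, whereas LIF and cardiotrophin-1 (Ctf1) join gp130 to the LIF receptor (Lifr), and mouse oncostatin M joins it chiefly to the oncostatin M receptor (Osmr). CLCF1, the cardiotrophin-like cytokine, acts through the receptor of ciliary neurotrophic factor together with LIFR and gp130. Assembly of the receptor activates JAK kinases and above all STAT3, and SOCS3 is the classical feedback inhibitor that binds gp130.

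Library totals ran from 18996937 to 22596630 counts, so that 1 count was worth between 0.0425 and 0.0546 CPM (counts scaled to a common library total). Levels below are CPM on library sizes scaled by TMM, given as mean ± SD of n = 3 libraries, and fold changes are on the log2 scale with their standard error (SE). A gene is said to rise or fall where its Benjamini-Hochberg adjusted p in edgeR's quasi-likelihood test was under 0.05 over the 14509 genes tested. No label states that the 3 libraries of a medium are separate cultures, and the p-values then cover no more than library-to-library spread, possibly a technical one. Of the 10 markers of squamous and other epithelium, Krt8, Krt18 and Cd44 were abundant. The basal and epithelial genes Krt5, Krt14, Krt6a, Cdh1 and Epcam were each at or under 0.0746 CPM in every group mean. Trp63 stood at 1.79, 0.124, 1.07 and 0.364 CPM in the M0, M1, M2 and TAM media, and Sfn at 0.775, 0.717, 0.641 and 1.54 CPM. These 10 markers summed to 656 to 690 CPM in the M0 CM libraries, 526 to 541 with M1 CM, 1002 to 1091 with M2 CM and 380 to 418 with TAM CM. The 10 fibroblast markers summed higher in each medium, to 2514 to 2661 CPM in the M0 CM libraries and 1445 to 1544 with M1 CM. With M2 CM they summed to 1500 to 1530 CPM and with TAM CM to 1152 to 1209, most of it collagen, with Lum and Thy1 at 0. Of the 7 tested, 2 rose and 5 fell in each medium against M0 CM. Over all genes tested, 53.4% were called with M1 CM, 39.4% with M2 CM and 70.0% with TAM CM. The part of the fibroblast list in the results below was not tested. The third M2 CM library is labelled melanoma where the other 11 are labelled squamous carcinoma. Of 8 melanocyte markers, Mitf stood at 7.91, 11.0, 6.37 and 11.7 CPM in the M0, M1, M2 and TAM media. Pmel was at or under 0.265 CPM and the other 6 were under 0.05 CPM in all 4 group means. In no single library did Pmel exceed 0.434 CPM or the other 6 exceed 0.145 CPM. Over log2 CPM, Pearson's r of the library labelled melanoma was 0.9935 with M2 CM 1 and 0.9935 with M2 CM 2, beside 0.9934 between those libraries. This r was not computed between libraries of different media, so it cannot show to which medium or cell line the library belongs. Without the library labelled melanoma the members' calls stayed as given below except for Ctf1 in M2 CM against M1 CM.

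Against M0 CM, members of the family rose and fell in each medium. With M1 CM 7 of the 9 tested members rose (Il6, Il11, Lif, Clcf1, Il6st, Il6ra and Osmr) and 1 fell (Il11ra1), where 53.4% of all genes tested were called, 27.7% higher and 25.6% lower. In M2 CM 3 rose (Lif, Il6st and Osmr) and 3 fell (Clcf1, Ctf1 and Il11ra1), against 39.4% of all genes, 21.0% higher and 18.5% lower. In TAM CM 4 rose (Il11, Lif, Clcf1 and Osmr) and 4 fell (Ctf1, Il6st, Il6ra and Il11ra1), against 70.0% of all genes, 35.1% higher and 34.9% lower. Il6 passed the filter only through its M1 CM counts, so its place among the members tested is not independent of that rise. Without it, the median log2 fold change of the other 8 tested members was 0.52 with M1 CM, 0.15 with M2 CM and 0.29 with TAM CM, beside 0.01, -0.00 and 0.00 for all genes. Libraries of the groups did not overlap in CPM for 7 of these 8 members with M1 CM, 6 with M2 CM and 8 with TAM CM, beside 58.8%, 49.5% and 73.1% of all genes. The 3 comparisons share the M0 CM libraries.

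The 3 media with treated macrophages were also set against each other. From M1 CM to M2 CM 7 members were lower and 1, Il6st, was higher, where 56.2% of all genes were called, 27.8% higher and 28.4% lower. From M1 CM to TAM CM 7 were again lower and 1, Clcf1, was higher, against 67.2% of all genes, 32.8% higher and 34.4% lower. From M2 CM to TAM CM 4 were higher (Il11, Lif, Clcf1 and Osmr) and 3 lower (Il6st, Il6ra and Il11ra1), against 68.4% of all genes, 34.3% higher and 34.1% lower. Il6 was among the 7 lower members in both comparisons with M1 CM, the only medium through which it passed the filter. Without it, 6 of the other 8 tested members had a log2 fold change below 0 and 2 above 0 in each of these 2 comparisons. Their median was -0.57 in M2 CM and -0.37 in TAM CM against M1 CM, beside -0.02 and -0.02 for all genes. Leaving out Il6, the libraries did not overlap for 7 of 8 members in each of the 3 comparisons, beside 59.8%, 69.5% and 71.3% of all genes.

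**Figure D1:**
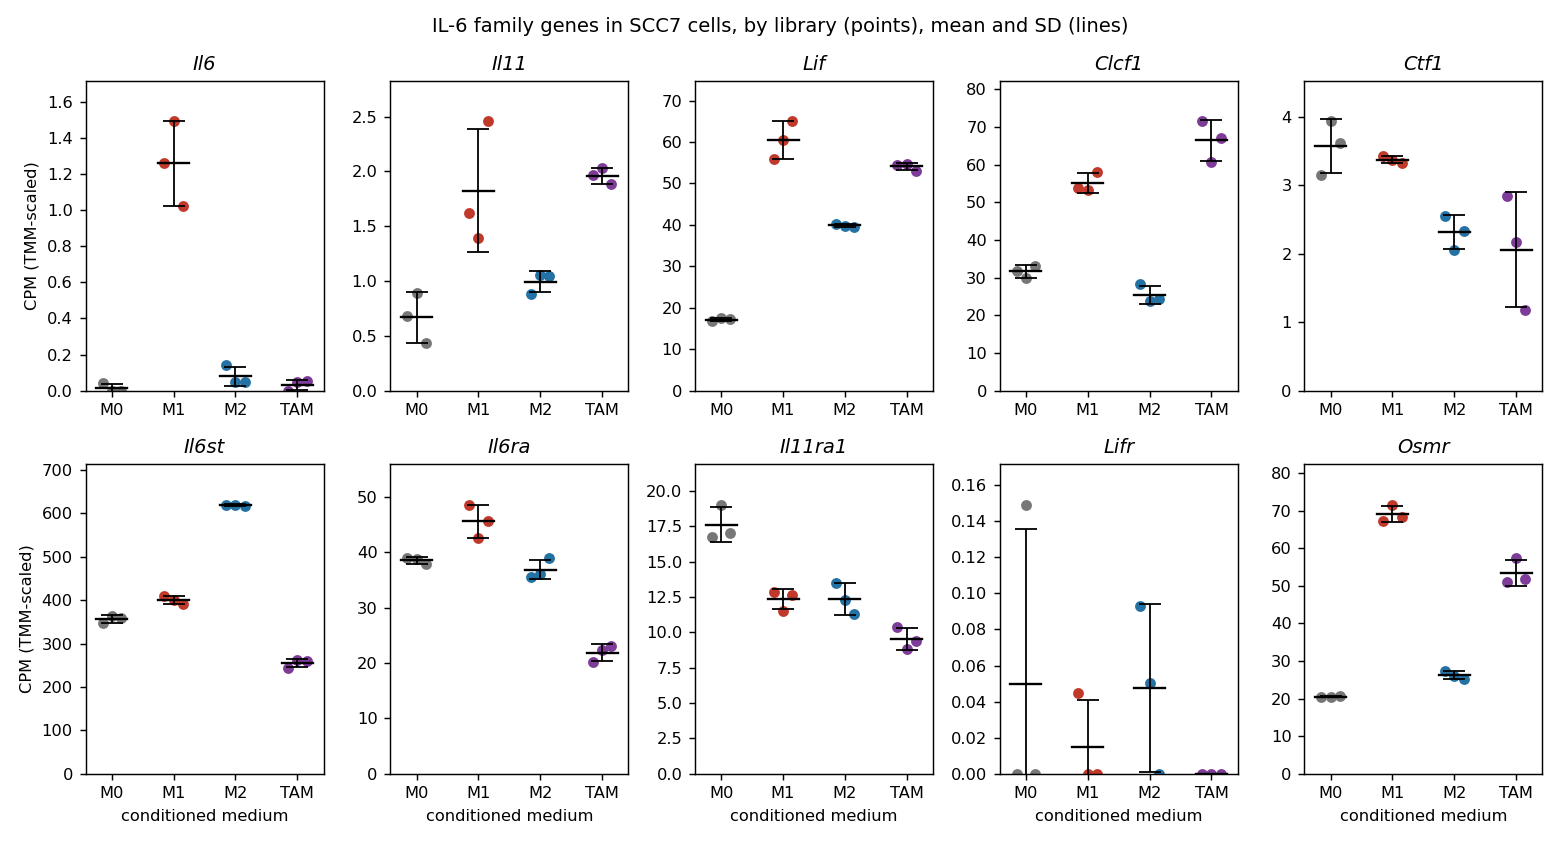
CPM of each of the 10 members in the 12 libraries (points, coloured by medium) with the group mean and SD (lines), 1 panel per gene with its own axis from 0. Lif and Osmr stood higher in M1 CM and TAM CM than in M0 CM, Il6st was highest in M2 CM at 619 CPM, Il6 was above 1 CPM only in M1 CM, and Lifr never exceeded 0.149 CPM.

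**Figure D2:**
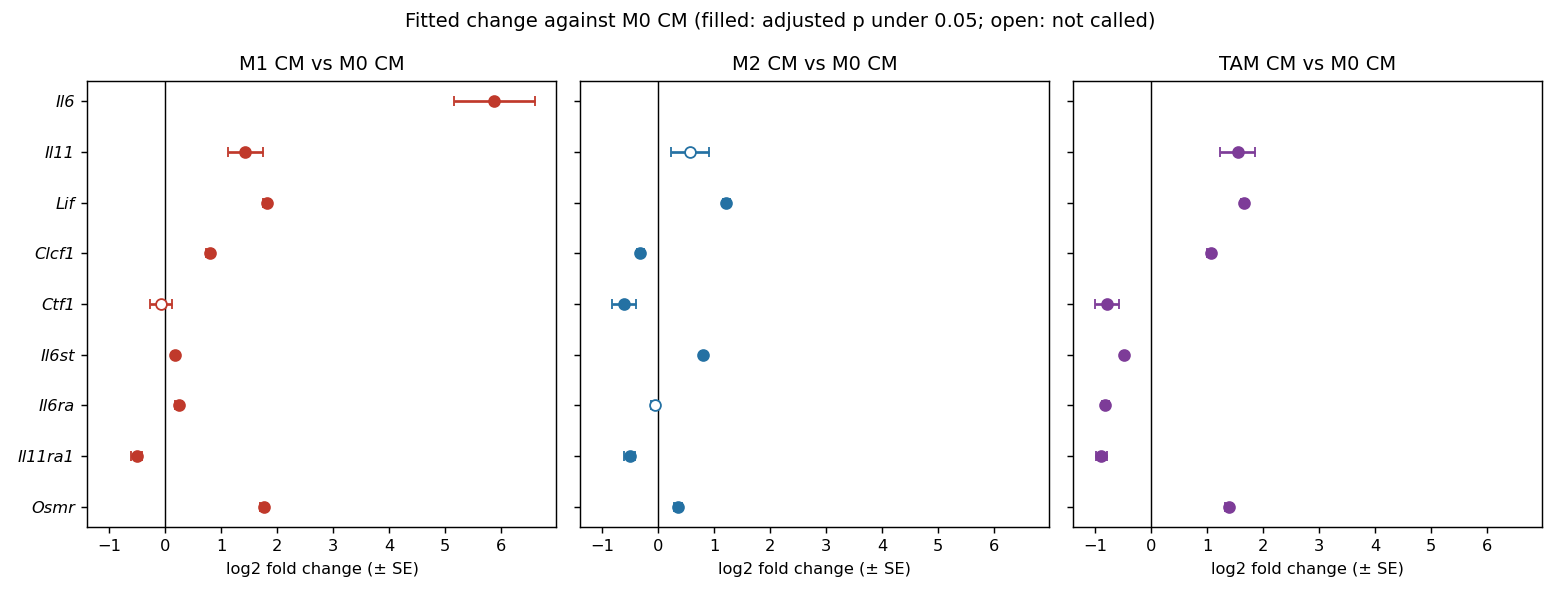
Fitted log2 fold change against M0 CM with its SE for the members tested, 1 panel per medium, filled where the adjusted p was under 0.05. Il6 is drawn only for M1 CM, since its counts in M2 CM and TAM CM were too few for a fold, and Lifr was not tested.

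Windows around the RefSeq transcript starts (250 bases before to 50 after, build GRCm38.p6) were found for 9 of the 10 members, 12 windows in all, and none for Clcf1. They were searched on both strands for 6 motifs of factors known to act on cytokine genes: the STAT-binding GAS element TTCNNNGAA, the degenerate NF-kB consensus, AP-1 TGANTCA, CRE TGACGTCA, C/EBP TTGNNCAA and the TATA element TATAAA. Windows with any match belonged to Il6, Il11, Lif and Osmr, and these are printed 5′ to 3′ on the gene's strand with the matches in capitals.
Il6 (chr5:30012864-30013163, plus strand): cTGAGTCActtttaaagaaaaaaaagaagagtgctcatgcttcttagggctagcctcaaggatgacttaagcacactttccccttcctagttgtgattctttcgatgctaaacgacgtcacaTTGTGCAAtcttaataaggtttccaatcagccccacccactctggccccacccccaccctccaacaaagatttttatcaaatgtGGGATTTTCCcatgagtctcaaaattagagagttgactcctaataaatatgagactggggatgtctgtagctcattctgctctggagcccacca
Il11 (chr7:4778092-4778391, minus strand): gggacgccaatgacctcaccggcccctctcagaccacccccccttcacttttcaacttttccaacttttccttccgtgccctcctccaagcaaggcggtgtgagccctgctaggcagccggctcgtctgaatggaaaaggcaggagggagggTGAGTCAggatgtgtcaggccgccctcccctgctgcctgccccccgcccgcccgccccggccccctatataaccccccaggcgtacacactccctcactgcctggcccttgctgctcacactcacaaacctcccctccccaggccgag
Lif (chr11:4257318-4257617, plus strand): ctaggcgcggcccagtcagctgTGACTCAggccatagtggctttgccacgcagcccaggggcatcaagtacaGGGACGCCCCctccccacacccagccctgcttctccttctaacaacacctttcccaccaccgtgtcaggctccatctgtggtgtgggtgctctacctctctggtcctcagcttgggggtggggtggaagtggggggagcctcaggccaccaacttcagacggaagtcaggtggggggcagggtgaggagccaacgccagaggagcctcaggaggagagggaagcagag
Osmr (chr15:6874264-6874563, minus strand): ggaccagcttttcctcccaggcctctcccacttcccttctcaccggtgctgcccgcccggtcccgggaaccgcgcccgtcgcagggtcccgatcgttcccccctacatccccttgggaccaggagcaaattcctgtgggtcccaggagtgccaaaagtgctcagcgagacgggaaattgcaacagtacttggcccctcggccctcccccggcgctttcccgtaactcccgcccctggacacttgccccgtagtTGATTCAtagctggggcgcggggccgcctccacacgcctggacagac
An AP-1 match stood in 4 of the 12 member windows, those printed, and the motif is held by 7.81% of all 32851 such windows. Counted from 1 at the window's 5′ end, it began at base 2 for Il6, base 153 for Il11, base 23 for Lif and base 254 for Osmr. The Osmr match thus lay after the transcript start. The Il6 window also held an NF-kB match at bases 207 to 216 (GGGATTTTCC) and the C/EBP match TTGTGCAA at bases 123 to 130, and the Lif window an NF-kB match at bases 73 to 82 (GGGACGCCCC). The NF-kB motif is held by 8.46% and the C/EBP motif by 6.40% of all windows, and no match overlapped another. All 4 genes rose in M1 CM, as did Il6st and Il6ra, whose windows held no match, and Clcf1, which had no window to search. No member window held the GAS (8.30%), CRE (1.79%) or TATA (13.6%) letters, and a second Il11 window held none of the 6. A match is a description of letters in these windows, and binding was not measured.

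Among the ligands, Il6 (ENSMUSG00000025746, chromosome 5, 30013114 to 30019981 in mm10, plus strand) was detected at a low level and almost only in M1 CM. Its counts there were 28, 31 and 20, or 1.26, 1.49 and 1.02 CPM. In M0 CM it had 1 count in the first library and 0 in the others, in M2 CM 3, 1 and 1 counts, and in TAM CM 0, 1 and 1. Every M1 CM library thus lay above every library of the other media. The M1 CM to M0 CM ratio was 81.3, with an exact binomial 95% interval from 14.2 to 3251 that covers counting error only, and Il6 rose (adjusted p = 1.34e-09 in edgeR's quasi-likelihood test). Without the first M0 CM library no Il6 count is left in M0 CM, and the fitted log2 fold change goes from 5.88 to 7.70. The log2 fold change of M2 CM over M1 CM was -3.88 (SE 0.56), and -4.53 without the first M2 CM library. TAM CM held 2 counts, which put M1 CM 37.9 times higher with an exact binomial interval from 10.2 to 319. For M2 CM against M0 CM the ratio of 5 counts to 1 was 5.15, with an exact binomial interval from 0.576 to 244, and it did not pass the test. No fold is given between TAM CM and M0 CM, both at or under 3 counts per group.

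Because macrophages make IL-6 themselves, macrophage markers were read beside it. The 11 markers summed to 23.3 to 24.5 CPM in the M0 CM libraries, 34.9 to 40.8 with M1 CM, 22.7 to 25.1 with M2 CM and 41.7 to 51.2 with TAM CM. Most of each sum was Cd14, a co-receptor for lipopolysaccharide that is not confined to macrophages. Without Cd14 the sum was 6.41 CPM in M0 CM and 11.8 CPM in M1 CM, beside 8.12 CPM in M2 CM and 5.96 CPM in TAM CM. Of 5 markers that passed the filter, 4 rose and 0 fell in M1 CM, and 1 rose and 1 fell in each of M2 CM and TAM CM. From M0 CM to M1 CM, Cd68 went from 3.89 to 6.99 CPM, Mrc1 from 0.681 to 2.60 CPM and Aif1 from 0.512 to 1.00 CPM. Csf1r went from 0.303 to 0.525 CPM, while Lyz2 went down from 0.831 to 0.422 CPM and Fcgr1 from 0.134 to 0.0321 CPM. In M1 CM the CPM of Cd68 and Mrc1 lay above that of Il6, without correction for gene length. Ptprc, Adgre1, Itgam and Cx3cr1 had group means at or under 0.102 CPM in every medium. Adgre1 and Cx3cr1 were at 0 in M0 CM and Itgam in the other 3 media, and 9 of 11 markers had a count in M0 CM and 10 in each other medium. The part of these markers in the Il6 level was not tested. As in any bulk measurement, fewer expressing cells and less RNA per cell cannot be told apart.

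Lif, whose product maintains stem cells and drives cachexia in tumours (ENSMUSG00000034394, chromosome 11, 4257557 to 4272514, plus strand), was the ligand gene with a rise in all 3 media. Its level was 16.8, 17.5 and 17.2 CPM in the M0 CM libraries and 55.9, 60.4 and 65.0 CPM in M1 CM. It was 40.3, 39.8 and 39.5 CPM in M2 CM and 54.5, 54.8 and 53.1 CPM in TAM CM. No 2 media overlapped, and the order from low to high was M0, M2, TAM and M1. The log2 fold changes over M0 CM were 1.82 (SE 0.06) with M1 CM, 1.22 (SE 0.06) with M2 CM and 1.66 (SE 0.06) with TAM CM, with edgeR quasi-likelihood adjusted p of 2.17e-30, 8.68e-22 and 7.12e-29. The step from TAM CM to M1 CM was small, with TAM CM lower by a log2 fold change of -0.16 (SE 0.05) and an edgeR quasi-likelihood adjusted p of 0.00744. That call was lost without the third M1 CM library (log2 fold change -0.11, adjusted p 0.101).

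Clcf1 (ENSMUSG00000040663, chromosome 19, 4214238 to 4223490, plus strand) split the media in another way. It stood at 31.8, 29.9 and 33.2 CPM in the M0 CM libraries and at 53.9, 53.3 and 58.1 CPM in those of M1 CM. The M2 CM libraries gave 28.2, 23.7 and 24.2 CPM, and those of TAM CM 71.5, 60.7 and 67.1 CPM. All 4 groups were separate, with M2 CM lowest and TAM CM highest. Clcf1 rose 1.74-fold in M1 CM and 2.09-fold in TAM CM (log2 fold change 1.07, SE 0.06, edgeR quasi-likelihood adjusted p = 5.13e-19). It fell by 0.32 (SE 0.07) on the log2 scale in M2 CM (edgeR quasi-likelihood adjusted p = 0.000246). TAM CM was 2.61-fold above M2 CM, against 1.20-fold above M1 CM. A protein-coding model on the same strand shares 8.17% of Clcf1's exon bases, but it had 0 counts in these libraries.

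Il11, which encodes a cytokine linked to fibrosis and epithelial repair (ENSMUSG00000004371, chromosome 7, 4772373 to 4782859, minus strand), was low, at 9 to 48 counts per library. It measured 0.680, 0.895 and 0.434 CPM with M0 CM and 1.62, 1.39 and 2.46 CPM with M1 CM. With M2 CM it measured 0.882, 1.05 and 1.05 CPM, and with TAM CM 1.97, 2.03 and 1.88 CPM. The libraries of M1 CM and TAM CM lay above all of M0 CM and M2 CM, while M0 CM and M2 CM overlapped. Il11 rose in M1 CM (log2 fold change 1.43, SE 0.31, edgeR quasi-likelihood adjusted p = 0.000117) and in TAM CM (1.55, SE 0.31, adjusted p = 2.00e-05). M1 CM and TAM CM did not pass the test against each other, with a difference of 0.11 (SE 0.27) that turned to -0.05 without the second M1 CM library. Il11 was lower in M2 CM than in M1 CM (log2 fold change -0.87, SE 0.29, edgeR quasi-likelihood adjusted p = 0.0106), a call lost without the third M1 CM library (log2 fold change -0.61, adjusted p 0.118).

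Ctf1, the gene of cardiotrophin-1 (ENSMUSG00000042340, chromosome 7, 127712736 to 127718192, plus strand), was the ligand that rose in no medium. The M0 CM libraries held it at 3.15, 3.93 and 3.61 CPM and the M1 CM libraries at 3.42, 3.37 and 3.33 CPM. Those of M2 CM held 2.55, 2.06 and 2.33 CPM, and those of TAM CM 2.84, 2.17 and 1.17 CPM. M2 CM and TAM CM lay below M0 CM and M1 CM with no overlap between the pairs. Ctf1 fell by 0.62 (SE 0.21) on the log2 scale in M2 CM and by 0.79 (SE 0.22) in TAM CM, with edgeR quasi-likelihood adjusted p of 0.0169 and 0.00120. In M1 CM its log2 fold change over M0 CM was -0.08 (SE 0.20), which did not pass the test. The M2 CM fall from M0 CM was lost without the second M0 CM library (adjusted p 0.0722) or the second M2 CM library (adjusted p 0.0738). The lower level in M2 CM than in M1 CM (edgeR quasi-likelihood adjusted p = 0.0282) was lost without M1 CM 1, M2 CM 2 or M2 CM 3, at adjusted p of 0.0655, 0.101 and 0.0571. The lower level in TAM CM than in M1 CM (edgeR quasi-likelihood adjusted p = 0.00367) was lost without TAM CM 3 (adjusted p 0.0779), the library at 1.17 CPM. Against M2 CM, TAM CM did not pass the test at -0.18 (SE 0.23), and the sign turned to 0.10 without TAM CM 3. On the opposite strand Ctf2 shares 4.77% of the exon bases of Ctf1, with about 1 count per library, and without a known strand setting the 2 genes' reads cannot be told apart there.

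The shared chain gp130 was the most abundant product of the family. Il6st (ENSMUSG00000021756, chromosome 13, 112464070 to 112510086, plus strand) stood at 347, 363 and 360 CPM with M0 CM and 410, 401 and 390 CPM with M1 CM. It stood at 621, 620 and 618 CPM with M2 CM and at 244, 261 and 261 CPM with TAM CM. The 4 groups did not overlap, with TAM CM lowest and M2 CM highest. Il6st rose 1.74-fold in M2 CM (log2 fold change 0.80, SE 0.03, edgeR quasi-likelihood adjusted p = 2.37e-26) and 1.12-fold in M1 CM (log2 fold change 0.17, SE 0.03). In TAM CM it fell by 0.48 (SE 0.03) on the log2 scale, at an adjusted p of 1.68e-18 in edgeR's quasi-likelihood test. Between the extremes, M2 CM was 2.42-fold above TAM CM.

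Osmr, the chain that mouse oncostatin M adds to gp130 (ENSMUSG00000022146, chromosome 15, 6813577 to 6874969, minus strand), was the receptor gene with the largest rise in M1 CM and in TAM CM, while in M2 CM Il6st rose more. It was at 20.4, 20.4 and 20.6 CPM in M0 CM and at 67.4, 71.7 and 68.4 CPM in M1 CM. In M2 CM it was at 27.3, 26.0 and 25.2 CPM and in TAM CM at 51.0, 57.3 and 51.8 CPM. The order from low to high was M0, M2, TAM and M1, as for Lif, and no 2 media overlapped. The log2 fold changes over M0 CM were 1.76 (SE 0.06) with M1 CM, 0.36 (SE 0.06) with M2 CM and 1.39 (SE 0.06) with TAM CM, with edgeR quasi-likelihood adjusted p of 1.84e-30, 1.14e-05 and 3.92e-26. TAM CM was lower than M1 CM by a log2 fold change of -0.37 (SE 0.05). Across the 12 libraries, Pearson's r of log2 CPM between Osmr and Lif was 0.88, the highest among pairs of tested members. It is a description, since the libraries fall into 4 groups and share their scaling. The ligand gene for this receptor, Osm, had 2 counts in the 12 libraries together.

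Lifr, the chain through which LIF and cardiotrophin-1 act (ENSMUSG00000054263, chromosome 15, 7090614 to 7197489, plus strand), had 7 counts in all. They were 0, 3 and 0 in the M0 CM libraries and 1, 0 and 0 in those of M1 CM. The M2 CM libraries had 2, 1 and 0, and those of TAM CM none. No difference is detectable at this depth, and 0 counts in TAM CM allow up to 0.0499 CPM in the group, by a floor of 3 counts that covers counting error only. The gene lies 216 kb from Osmr on the same chromosome, with 1 annotated gene between them, which is not protein-coding. Cntfr, the alpha chain that CLCF1 uses, had 2 counts in all.

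The genes of the alpha chains of IL-6 and IL-11 both fell in TAM CM and differed in the other media. Il6ra (ENSMUSG00000027947, chromosome 3, 89864059 to 89913196, minus strand) was at 39.0, 38.8 and 37.9 CPM in the M0 CM libraries and at 48.6, 42.7 and 45.6 CPM with M1 CM. With M2 CM it was at 35.6, 36.2 and 38.9 CPM, and with TAM CM at 20.2, 22.3 and 23.2 CPM. TAM CM lay below every library of the other media, whereas M0 CM and M2 CM overlapped. The fall from M0 CM to TAM CM was a log2 fold change of -0.81 (SE 0.06, edgeR quasi-likelihood adjusted p = 6.62e-16), and the rise in M1 CM was 0.24 (SE 0.06, adjusted p = 0.00045). In M2 CM the log2 fold change was -0.06 (SE 0.06), which did not pass the test. An antisense gene shares 2.80% of its exon bases and averaged 1.92 counts per library, again not separable without the strand. Counts per gene do not separate the membrane-bound from a soluble form of the receptor.

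Il11ra1 (ENSMUSG00000073889, chromosome 4, 41699989 to 41769474, plus strand) was the member that fell in all 3 media. Its M0 CM libraries were at 16.8, 19.0 and 17.1 CPM and its M1 CM libraries at 12.9, 11.5 and 12.6 CPM. Those of M2 CM were at 13.5, 12.3 and 11.3 CPM, and those of TAM CM at 10.4, 8.86 and 9.37 CPM. M0 CM lay above all other libraries and TAM CM below them, with M1 CM and M2 CM overlapping. The log2 fold changes over M0 CM were -0.51 (SE 0.09), -0.51 (SE 0.09) and -0.89 (SE 0.10) in M1, M2 and TAM CM, with edgeR quasi-likelihood adjusted p of 7.01e-06, 1.42e-05 and 2.23e-11. M2 CM differed from M1 CM by 0.00 (SE 0.10), and this sign turned negative in 6 of the 19 alternatives. Il11ra2, a near copy of Il11ra1, had 17 counts in all, so reads of the copies could be split by the counting, and the value of Il11ra1 is uncertain to that extent.

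To rank the members against each other, their levels were taken per kilobase of merged exons (RPKM). In M0 CM the order of the receptor chains was Il6st at 32.1 ± 0.763 RPKM, Il6ra at 4.46 ± 0.0704, Il11ra1 at 3.94 ± 0.279 and Osmr at 1.69 ± 0.0118. In TAM CM it was Il6st at 23.0 ± 0.891, Osmr at 4.41 ± 0.283, Il6ra at 2.53 ± 0.177 and Il11ra1 at 2.13 ± 0.172. Osmr had thus gone from the lowest of these 4 chains to the second. Of the ligand genes, Clcf1 led in M0 CM at 8.31 ± 0.438 RPKM, ahead of Lif at 3.94 ± 0.0767. In M1 CM the same genes stood at 14.5 ± 0.690 and 13.9 ± 1.04 RPKM, within their SDs of each other. Ctf1 was between 1.13 and 1.95 RPKM in the 4 group means, and Il11 and Il6 were under 1 RPKM in each. Merged exon lengths overstate the transcript of a gene with many isoforms.

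Ratios of receptor chains within a library do not depend on how libraries are scaled. Osmr amounted to 5.37%, 5.14% and 5.25% of the Il6st RPKM in the M0 CM libraries, and to 15.0%, 16.4% and 16.0% in M1 CM. It was 4.03%, 3.85% and 3.74% in M2 CM and 19.2%, 20.1% and 18.2% in TAM CM. The 4 groups were separate, so each pair gave p = 0.1 in an exact two-sided permutation test, the smallest that 3 libraries against 3 allow. Il6ra was 13.9 ± 0.484% of Il6st with M0 CM and 14.6 ± 0.838% with M1 CM, against 7.65 ± 0.386% with M2 CM and 11.0 ± 0.389% with TAM CM. M0 CM and M1 CM overlapped (p = 0.3, exact permutation test), and M2 CM lay lowest. Il11ra1 was 12.3 ± 0.668%, 7.65 ± 0.457%, 4.96 ± 0.432% and 9.29 ± 1.12% of Il6st in the M0, M1, M2 and TAM media. The ratio of Osmr to Il6ra went from 0.379 ± 0.00868 in M0 CM to 1.74 ± 0.129 in TAM CM, with M1 CM at 1.09 ± 0.106 and M2 CM at 0.508 ± 0.0425.

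**Figure D3:**
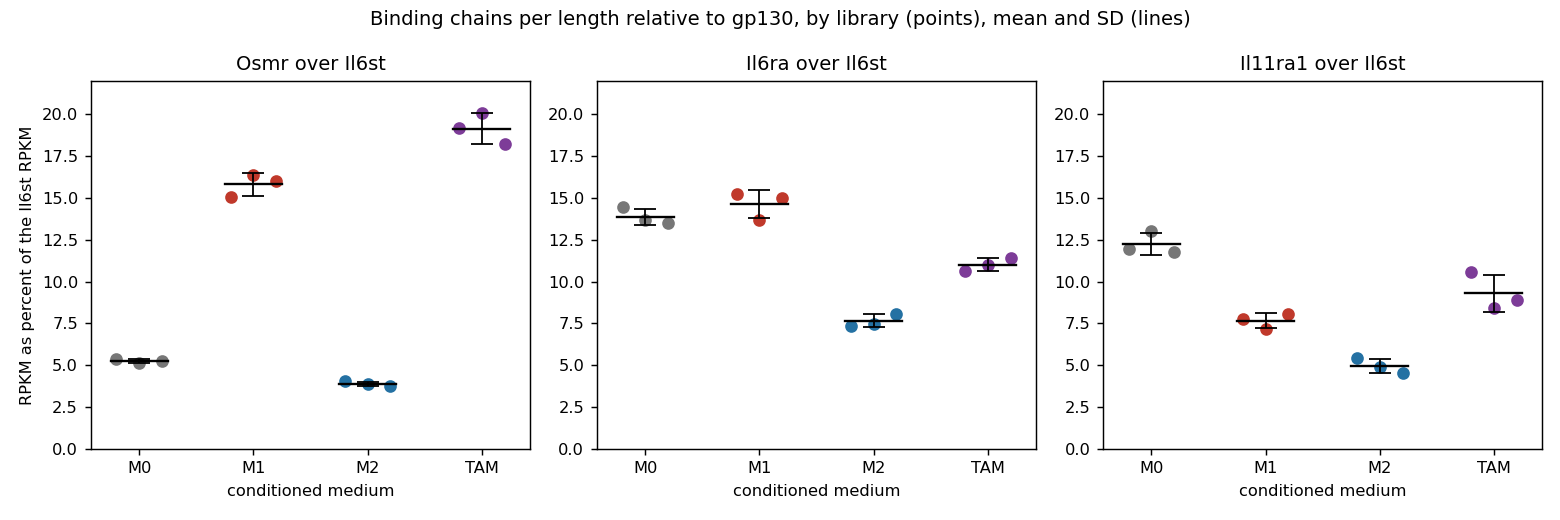
RPKM of Osmr, Il6ra and Il11ra1 as a percent of the Il6st RPKM of the same library (points, coloured by medium), with group mean and SD (lines), on 1 common axis from 0. Osmr stood near 5% in M0 CM and at 18.2% to 20.1% in TAM CM, and all 3 ratios were lowest in M2 CM.

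Among other ligands and receptor chains of the family and its relatives, Cntf, ciliary neurotrophic factor, was low and fell from 0.917 ± 0.302 CPM in M0 CM to 0.432 ± 0.0426 CPM in M1 CM and 0.367 ± 0.282 CPM in TAM CM. The log2 fold changes were -1.06 (SE 0.43) and -1.35 (SE 0.46), with adjusted p of 0.0355 and 0.00779 in edgeR's quasi-likelihood test. With M2 CM it stood at 0.956 ± 0.268 CPM, which did not pass the test. The fall in M1 CM was lost without M0 CM 2 or 3 or any 1 of the M1 CM libraries, at adjusted p from 0.053 to 0.171, and with DESeq2 (0.0587). The fall in TAM CM was lost without M0 CM 2 (adjusted p 0.056) or TAM CM 2 (0.107), and without TAM CM 1 its log2 fold change was -2.04. Osm, Ctf2, Il27, Ebi3, Il31, Cntfr, Il11ra2, Il27ra and Il31ra had at most 37 counts each in the 12 libraries together and were not tested.

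Downstream of gp130, 6 of 14 kinase, STAT and adaptor genes rose and 2 fell in M1 CM (median log2 fold change 0.06). With M2 CM 4 rose and 2 fell (0.01), and with TAM CM 3 rose and 8 fell (-0.18). The all-gene medians and shares called given above are the background for this list and those that follow. Stat3, the main STAT of the family, rose from 153 ± 1.33 CPM in M0 CM to 326 ± 10.9 with M1 CM and 165 ± 4.47 with M2 CM, and fell to 132 ± 4.13 with TAM CM. Jak2 rose from 31.6 ± 1.53 to 76.2 ± 2.06 CPM in M1 CM and 37.9 ± 2.28 CPM in TAM CM, and at 32.4 ± 3.16 CPM in M2 CM did not pass the test. The adaptor gene Gab2 rose in M1 CM and in TAM CM, from 9.54 ± 0.904 to 21.9 ± 0.904 and 19.5 ± 0.319 CPM, and at 10.2 ± 0.285 CPM in M2 CM did not pass the test. With library sizes alone 6 of these genes fell in M1 CM in place of 2, and in M2 CM 2 rose and 4 fell. The 2 falls in M1 CM became 1 without M0 CM 1 or M1 CM 3 and with no filter.

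Inhibitors of the pathway did not move as 1 group. Of 9 genes 3 rose and 5 fell in M1 CM (median log2 fold change -0.18). With M2 CM 4 rose and 2 fell (-0.00), and with TAM CM 2 rose and 4 fell (-0.38). Socs3 rose from 33.6 ± 1.29 CPM in M0 CM to 76.1 ± 1.38 in M1 CM and 44.8 ± 2.11 in M2 CM, and stood at 31.1 ± 1.23 CPM in TAM CM, where it did not pass the test. Socs2, which restrains growth hormone signalling, ran the other way, from 14.7 ± 1.11 CPM down to 4.54 ± 0.0557 in M1 CM and 5.65 ± 0.923 in M2 CM and up to 41.9 ± 2.53 in TAM CM. Pias3, an inhibitor of STAT3, fell in all 3 media and most in TAM CM, to 21.5 ± 1.64 from 53.7 ± 1.62 CPM. Ptpn1, a tyrosine phosphatase, fell in M1 CM and TAM CM, to 51.0 ± 2.41 and 35.2 ± 1.20 from 57.7 ± 0.789 CPM, and at 57.6 ± 0.662 CPM in M2 CM did not pass the test.

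Among 20 genes known to respond to STAT3 or to belong to the acute phase, 16 could be tested. In M1 CM 11 rose and 1 fell (median log2 fold change 0.56). With M2 CM 7 rose and 4 fell (0.10), and with TAM CM 9 rose and 5 fell (0.40). The acute phase genes Saa3 and Lcn2 both rose in M1 CM and in TAM CM, and in M2 CM Saa3 fell while Lcn2 did not pass the test. Saa3 was at 0.440 ± 0.233 CPM with M0 CM and 19.2 ± 3.14 CPM with M1 CM, at 0.129 ± 0.0312 CPM with M2 CM and at 26.6 ± 0.854 CPM with TAM CM. Lcn2, whose product binds bacterial iron carriers, was at 0.704 ± 0.215, 24.5 ± 1.27, 0.549 ± 0.214 and 18.2 ± 2.51 CPM in the same order. The fall of Saa3 in M2 CM (log2 fold change -1.72, SE 0.55, edgeR quasi-likelihood adjusted p = 0.0102) compares 2 low levels and was not recomputed with libraries left out. Saa3 was well above the filter only in M1 CM and TAM CM, so its place among the tested genes is not independent of those rises. Cebpd rose in M1 CM, from 15.0 ± 1.32 to 41.9 ± 3.83 CPM, fell in M2 CM to 11.2 ± 1.48 CPM, and stood at 14.1 ± 0.165 CPM in TAM CM, which did not pass the test. Myc rose against M0 CM in each medium, from 111 ± 6.20 CPM to 182 ± 7.45 with M1 CM, 209 ± 7.57 with M2 CM and 843 ± 24.1 with TAM CM. The liver acute phase genes Hp and Fgg had 4 and 1 counts in all. The 1 fall in M1 CM became 0 without M0 CM 2 and 2 with library sizes alone. Many of these genes also answer to other pathways.

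**Figure D4:**
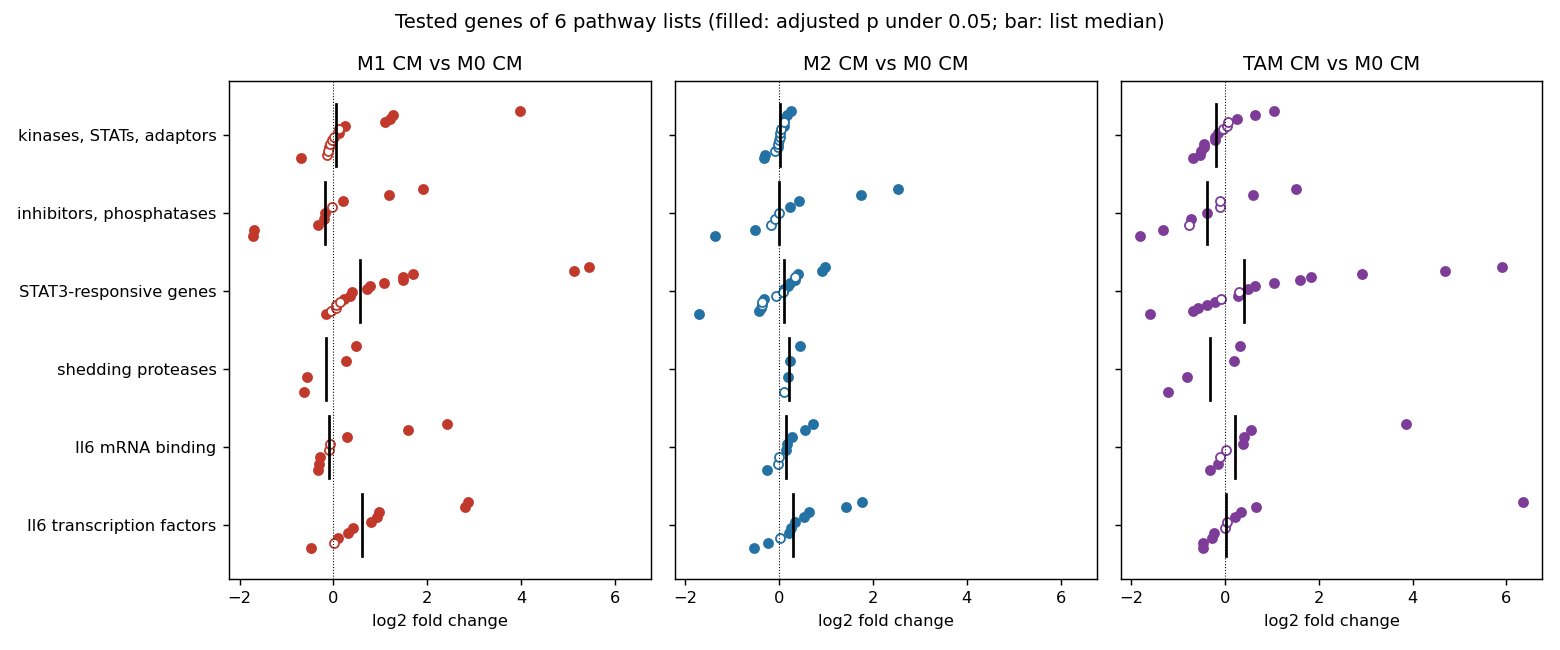
Log2 fold change against M0 CM of the tested genes of 6 lists (points, filled where the adjusted p was under 0.05), with the list's median (bar), 1 panel per medium. The STAT3-responsive list reaches up to Saa3 at 5.45 with M1 CM and 5.91 with TAM CM, and its median is 0.56 with M1 CM and 0.10 with M2 CM.

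Of genes that act on Il6 itself, 8 of 10 transcription factor and inhibitor genes rose and 1 fell in M1 CM (median log2 fold change 0.61). In M2 CM 7 rose and 2 fell (0.29), and in TAM CM 4 rose and 4 fell (0.02). Irf1, an interferon-induced activator, went from 71.9 ± 2.38 to 522 ± 12.3 CPM in M1 CM, and Nfkbia, the NF-kB inhibitor gene that NF-kB itself induces, from 160 ± 9.54 to 279 ± 10.6. With M2 CM Irf1 fell to 61.4 ± 3.64 CPM and Nfkbia rose to 230 ± 6.52 CPM, and with TAM CM Nfkbia fell to 116 ± 3.64 CPM while Irf1, at 72.0 ± 2.79 CPM, did not pass the test. Nfkb1 stood at 167 ± 1.59 CPM in M0 CM and 168 ± 0.534 in M1 CM, where it did not pass the test. It rose in M2 CM to 568 ± 1.77 CPM and fell in TAM CM to 122 ± 1.21 CPM. Atf3, a stress-induced factor known to repress Il6, rose in all 3 media and most in TAM CM, from 0.806 ± 0.0406 to 66.9 ± 0.791 CPM.

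Of 8 genes for proteins that bind Il6 mRNA, 3 rose and 3 fell in M1 CM (median log2 fold change -0.09). With M2 CM 5 rose and 1 fell (0.15), and with TAM CM 4 rose and 2 fell (0.21). With library sizes alone 5 fell in M1 CM. Arid5a, whose product stabilises Il6 mRNA, rose from 6.03 ± 0.584 CPM in M0 CM to 32.5 ± 2.69 with M1 CM, 8.82 ± 0.902 with M2 CM and 88.2 ± 3.41 with TAM CM. Zfp36, whose product promotes its decay, rose from 9.01 ± 0.171 to 27.3 ± 2.05 CPM with M1 CM, 14.9 ± 0.701 with M2 CM and 13.2 ± 0.399 with TAM CM. Zfp36l1 and Rc3h1, which also promote decay of mRNAs, fell in M1 CM, from 131.7 ± 1.252 to 107 ± 2.53 CPM and from 75.2 ± 1.65 to 60.5 ± 3.33 CPM. In TAM CM Zfp36l1 fell to 105 ± 2.51 CPM while Rc3h1 rose to 99.8 ± 2.36 CPM, and in M2 CM Zfp36l1 rose to 145 ± 5.58 CPM while Rc3h1, at 74.1 ± 1.28 CPM, did not pass the test. Among the 4 genes for shedding of receptors, the protease gene Adam17 rose in each medium, from 106 ± 1.98 CPM to 127 ± 2.41, 120 ± 2.41 and 120 ± 1.67 in M1, M2 and TAM CM. Rhbdf2 also rose in each, whereas the related Rhbdf1 fell in M1 CM and TAM CM, from 83.6 ± 1.91 to 54.1 ± 4.64 and 35.9 ± 1.73 CPM. At 89.3 ± 1.85 CPM in M2 CM Rhbdf1 did not pass the test. Adam10, which can also shed the IL-6 receptor, fell in M1 CM and TAM CM, from 160 ± 3.17 to 108 ± 3.48 and 91.7 ± 3.63 CPM. It rose in M2 CM to 187 ± 8.53 CPM.

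The genes most like each member were taken as the 3 with the highest Pearson's r of log2 CPM over the 12 libraries. They were sought among tested genes of at least 2 CPM in 1 group, leaving out genes without a symbol and those with predicted or clone names. For Osmr they were Ttc39c (r = 0.995), Casp4 (0.993) and Med13 (0.988), and Casp4, an inflammatory caspase, ran from 6.60 CPM in M0 CM to 60.1 in M1 CM. Those of Lif were Xdh (0.991), Pnpla2 (0.989) and Serpinb9b (0.987). For Il6st they were Slc6a4 (0.992), Lipg (0.991) and Sema7a (0.988), each highest in M2 CM and lowest in TAM CM. Clcf1 was most like Fth1 (0.997), the ferritin heavy chain, and then Gstp-ps (0.991) and Sqor (0.990). Il6ra was most like Rab12 (0.989), Hk1 (0.989) and Chpt1 (0.988), and Il11ra1 most like Mxd4 (0.987), Rnf144b (0.973) and Snai1 (0.972). For Il6 they were Crem (0.985), Slc6a19 (0.985) and Cmpk2 (0.983), all highest in M1 CM. The values were lower for Il11, with Hivep2 (0.965), Gosr1 (0.957) and Hmgxb3 (0.953), and lowest for Ctf1, with Ttc30b (0.899), Kat5 (0.883) and Adamts10 (0.874). With 4 groups, such values follow mainly from the order of the group means.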

How the data were processed

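RNA sequencing of SCC7 cells gave 12 libraries in 4 groups, assigned by sample title. The deposited file holds raw read counts per Ensembl gene, with no scaling. Per the submitters' processing notes, HISAT2 2.0 and mm10 were used. The counting tool, the annotation release and whether strand was used are not given in the sources at hand. Symbols, mm10 coordinates and exon lengths came from GENCODE M21, in which 55227 of 55487 identifiers were found. Promoter windows are RefSeq's (GRCm38.p6), and the NF-kB motif was widened to its degenerate consensus after the windows had been searched, which added the match of Lif.

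Counts were filtered by filterByExpr (14509 genes kept, the rest holding 0.0815% of counts), scaled by TMM and tested with edgeR 4.0.16 (glmQLFit, robust, and glmQLFTest, 1 mean per group) in R 4.3.3, with p-values adjusted by Benjamini-Hochberg over these genes. SE is the fold change on the log2 scale divided by the root of F. Log2 CPM used a prior count of 2. On simulated M1 CM against M0 CM counts (13903 genes) the test recovered 36, 39, 46 and 48 of 50 genes changed 1.3-, 1.5-, 2- and 4-fold and called 15 of 13704 unchanged genes. Same-numbered libraries of different groups did not deviate together (r from -0.03 to 0.05 over 18 pairs), so numbers were not taken as pairs. No 2 libraries were identical.

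All 10 members are named. Of each other list, up to 4 genes of smallest p called in any comparison with M0 CM are named, with a few others (Osm, Ctf2, Cntfr, Il11ra2, Il27, Ebi3, Il27ra, Il31, Il31ra, Hp and Fgg) chosen after their values were seen, and some that the rule names are not reported here. Members and lists were chosen with earlier results of these data known. Alternatives, run for counts called and for fold changes of members and Cntf, were DESeq2 1.42.0, 2 other scalings, 2 other filters, 2-group fits, a replicate block and each library left out.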

Additional observations from a re-analysis of the deposited data

How the results depend on the processing

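Counts of genes called, over the whole table, the members and (against M0 CM) the pathway lists, were recomputed under 19 alternatives. So were the fold changes of members and of Cntf. They were DESeq2's Wald test, DESeq2 size factors, library sizes alone, no filter and a filter of 1 CPM in 3 libraries. Fits of the 2 groups compared, the replicate block and each of the 12 libraries left out made up the rest. In 2-group fits without M1 CM, Il6 did not pass the filter. Ratios, RPKM ranks, correlations, marker values and single genes of the other lists were not recomputed. Counts of members called were within 1.5 times the reported count in all 228 cases. In M1 CM against M0 CM they were 7 higher and 1 lower under each alternative, and in TAM CM against M0 CM 4 and 4. In M2 CM against M0 CM 3 were higher and 2 to 3 lower. Of 1023 recomputed fold changes of members, 1007 kept their sign and their side of the threshold, 8 lost the call and 8 changed sign. All 16 came from leaving out 1 library. The changes of sign were in differences that had not passed the test: Il11ra1 in M2 CM against M1 CM (up to 0.0594 without M2 CM 3, and below 0 without M0 CM 2 or 3 at -0.00139 and -0.00128, M1 CM 2 at -0.0443, M2 CM 1 at -0.0658, TAM CM 1 at -0.00209 and TAM CM 2 at -0.00242), Il11 in TAM CM against M1 CM (-0.0456 without M1 CM 2, up to 0.375 without M1 CM 3) and Ctf1 in TAM CM against M2 CM (0.101 without TAM CM 3, down to -0.449 without TAM CM 1). The lost calls are those of Ctf1, Il11 and Lif given in the report.

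With the replicate number as a block, the counts of members called were those of the reported fit in all 6 comparisons, and over the whole table M1 CM against M0 CM gave 4061 higher and 3745 lower genes, against 4023 and 3719. The block changed no call of a member. With library sizes alone the split over all genes was 3219 higher and 4626 lower in M1 CM and 2201 and 3653 in M2 CM, against 3042 and 2681 in M2 CM as reported. At 1 count per about 0.05 CPM, Il6 outside M1 CM and Lifr in every medium rest on 0 to 3 counts per library, and the precision of Il11 and Ctf1 is limited by counts of 9 to 79.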
